A study of Mus musculus with 35 samples.

Results

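The genes that encode proteasome subunits, activators and assembly chaperones were followed through striatal RNA-seq libraries of mice with and without a Huntington disease knock-in allele and a neuron-specific deletion of Hdac2. A gene was a member where its symbol began with Psm, went on with one of the letters a to g and ended in a number, and names of processed copies were dropped. By this rule 48 of the 39017 annotated genes were members, on 16 chromosomes, and 47 of the 48 passed the filter on low counts in every comparison described here. The rule used the symbol alone and no measured value.

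RNA was taken from whole striatum of mice 21.71 to 23.0 weeks old, with 1 library per mouse and 35 libraries in all. The HttQ111 allele puts an expanded CAG repeat into mouse huntingtin, and the repeat was 110 to 144 units long in the HttQ111/+ mice. Hdac2 KO mice were homozygous for a floxed Hdac2 allele and carried the D9-Cre transgene, in which part of the Ppp1r1b (DARPP-32) gene drives Cre in medium-spiny neurons (MSNs), the main projection neurons of the striatum. Hdac2 WT mice carried no Cre, so that Cre and the loss of Hdac2 cannot be told apart here. The groups were Htt+/+ Hdac2 WT (n = 8, with 5 males), HttQ111/+ Hdac2 WT (n = 7, with 4 males), Htt+/+ Hdac2 KO (n = 9, with 5 males) and HttQ111/+ Hdac2 KO (n = 11, with 8 males). The line with the floxed allele came from a mixed C57BL/6 and 129 background that was crossed to C57BL/6J.

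The proteasome degrades proteins that carry ubiquitin chains. Its 20S core is a barrel of alpha and beta rings, with the proteolytic sites on the beta subunits Psmb5, Psmb6 and Psmb7, and the 19S cap on its ends recognizes, unfolds and feeds in substrates with a ring of ATPases. In the immunoproteasome, which interferon induces in immune and other cells, Psmb8, Psmb9 and Psmb10 take the places of Psmb5, Psmb6 and Psmb7, and the cap can be replaced by the PA28 activator made of Psme1 and Psme2. Expanded huntingtin is itself a substrate of protein quality control, and the proteasome has long been studied in Huntington disease for this reason.

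Psme1 and Psmb10 were the members with the largest differences between Hdac2 KO and Hdac2 WT striata, and Psmb8 is the immunoproteasome gene next in level to Psmb10. Their promoters are printed for this reason, from 250 bases before to 50 bases after the start that RefSeq gives (GRCm38.p6). They lie at chr14:55578244-55578543 on the plus strand for Psme1, at chr8:105938343-105938642 on the minus strand for Psmb10 and at chr17:34197945-34198244 on the plus strand for Psmb8. Capitals mark matches to a motif that was searched.
Psme1: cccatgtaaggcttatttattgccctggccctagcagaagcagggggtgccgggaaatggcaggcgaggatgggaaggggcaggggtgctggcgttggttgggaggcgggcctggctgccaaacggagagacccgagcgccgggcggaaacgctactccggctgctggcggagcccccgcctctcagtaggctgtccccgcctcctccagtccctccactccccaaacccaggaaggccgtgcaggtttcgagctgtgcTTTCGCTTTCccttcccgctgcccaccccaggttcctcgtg
Psmb10: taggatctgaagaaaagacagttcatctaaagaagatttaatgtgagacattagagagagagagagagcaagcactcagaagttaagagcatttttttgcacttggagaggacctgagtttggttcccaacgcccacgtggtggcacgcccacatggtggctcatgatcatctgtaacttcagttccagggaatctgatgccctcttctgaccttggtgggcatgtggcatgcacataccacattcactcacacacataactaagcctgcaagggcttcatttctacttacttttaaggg
Psmb8: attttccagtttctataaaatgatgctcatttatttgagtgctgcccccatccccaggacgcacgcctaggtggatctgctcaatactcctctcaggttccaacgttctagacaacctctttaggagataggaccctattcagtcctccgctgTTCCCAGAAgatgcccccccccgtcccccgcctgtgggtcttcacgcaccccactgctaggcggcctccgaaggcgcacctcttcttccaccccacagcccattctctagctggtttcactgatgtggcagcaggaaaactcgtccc

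The Psme1 match was TTTCGCTTTC, which is the interferon-stimulated element (GAAA and GAAA with 2 bases between them) read on the other strand, and it began 9 bases after the start. The Psmb8 match was TTCCCAGAA, which is the GAS element TTCNNNGAA, and it began 97 bases before the start. Neither of these elements, nor the antioxidant response element TGACNNNGC or the CCAAT box, was found in the Psmb10 window. RefSeq's start is the outer end of the annotated gene for Psmb10 but lies 371 bases inside it for Psme1 and 474 bases inside it for Psmb8, so that windows at other starts of these genes were not searched.

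The table of promoters held 43 windows for 40 of the 48 members, and both strands were searched. The interferon-stimulated element was found in 11.6% of the member windows against 3.44% of all 32851 windows, for Psmb3, Psmd4, Psmd9, Psme1 and Psmg4. The GAS element was found in 6.98% of them against 8.3% of all windows. The antioxidant response element, the binding motif of the factors Nfe2l1 and Nfe2l2 that drive proteasome genes, was found in 14.0% against 12.4%, and the CCAAT box in 32.6% against 37.4%. A match is a string of letters in these windows and was not tested as a binding site.

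Between 50339179 and 76939791 counts fell on genes in a library. Hdac2 itself had 97.6 to 106.5 CPM (the count scaled to the size of its library) in Htt+/+ Hdac2 WT and 89.4 to 99.2 CPM in Htt+/+ Hdac2 KO libraries, and 95.5 to 111.4 CPM in HttQ111/+ Hdac2 WT and 89.8 to 101.2 CPM in HttQ111/+ Hdac2 KO libraries. Its log2 difference was -0.09 and -0.12 with an adjusted p of 0.0552 and 0.00198 by edgeR's quasi-likelihood test. The counts cover the whole gene, including exons outside the deleted part, and MSNs are only some of the cells in the tissue. The RNA was extracted on 6 days that nearly followed the Hdac2 genotype: only on 25 May and 27 May were Hdac2 WT and Hdac2 KO tissue extracted together. Defining markers of MSNs summed to 5716 CPM or more in every library. In such bulk tissue, fewer cells of a type and less RNA per cell cannot be told apart.

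The 31 constitutive subunits, which are the alpha and beta subunits of the standard core and the ATPases, scaffolds and lid of the cap, were all well expressed. Per kilobase of exon they ranged from 5.44 CPM for Psma3 to 97.8 CPM for Psmc5, with a median of 24.6 CPM. Psmc5, an ATPase of the cap, was followed by the alpha subunit Psma6 (67.7 CPM per kb) and the ATPase Psmc1 (57.4 CPM per kb). The catalytic subunits Psmb6 (43.0 CPM per kb), Psmb5 (39.0 CPM per kb) and Psmb7 (27.2 CPM per kb) lay near or above the median.

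The other classes were lower. The 20S assembly chaperones Psmg1 to Psmg4, which help the alpha and beta rings to form, ranged from 2.84 to 9.74 CPM per kb. The cap chaperones Psmd5, Psmd9 and Psmd10 ranged from 3.35 to 10.9 CPM per kb, the activators from 2.89 for Psme2 to 16.5 for Psme3, and the inhibitor Psmf1 lay at 4.61 CPM per kb. Of the immunoproteasome subunits Psmb10 was the highest at 5.65 CPM per kb, above Psmb8 (0.917) and Psmb9 (0.384). The testis subunit Psma8 (0.137 CPM per kb, 4 to 44 counts in a library) and the thymus subunit Psmb11 (0 to 6 counts) were at the edge of detection, and Psmb11 is the member that missed the filter.

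**Figure D1:**
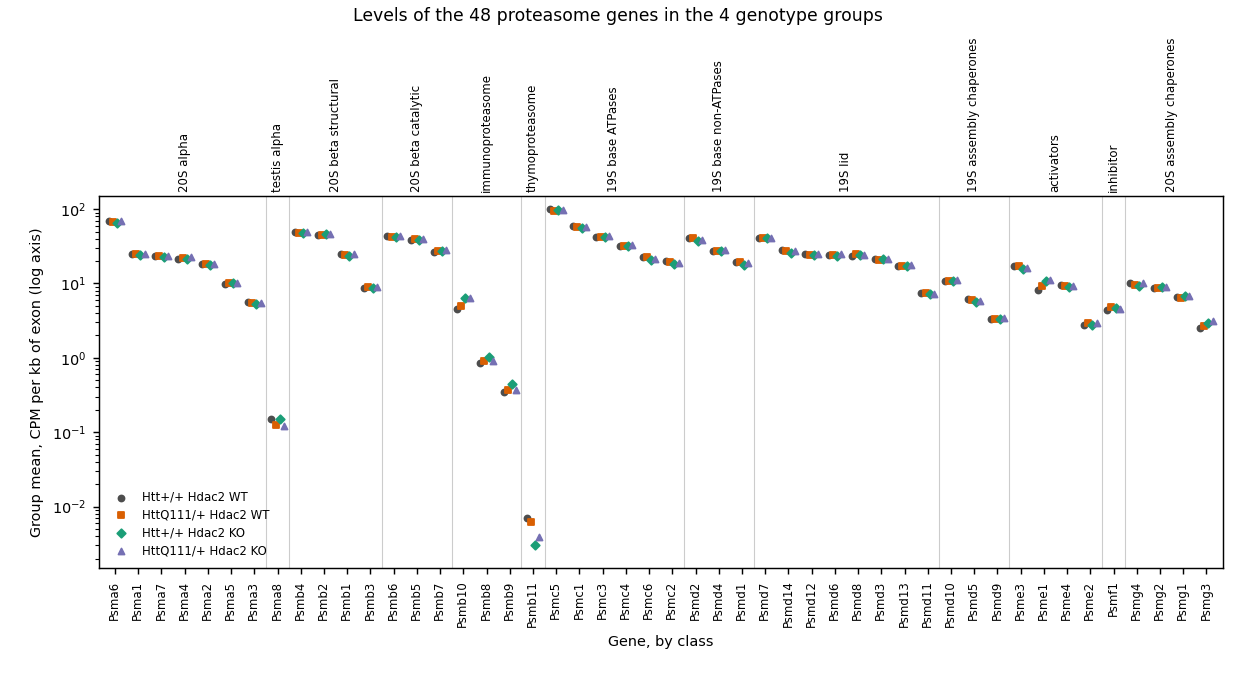
Group means of the 48 members in CPM per kilobase of exon on a log axis, grouped by class, with 1 symbol for each of the 4 genotype groups. The constitutive subunits lie between 5.44 and 97.8 CPM per kb as means over all libraries, Psmb8 and Psmb9 lie at 0.917 and 0.384 on the same scale, and Psmb11 is the lowest.

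Per kilobase, Psmb5 was 42.5-fold above Psmb8, Psmb6 was 112-fold above Psmb9 and Psmb7 was 4.81-fold above Psmb10. These folds depend on the length of all annotated exons together, which was 899 bases for Psmb5 and 3381 for Psmb8. In mean CPM without length, Psmb5 and Psmb8 had 35.0 and 3.10, Psmb6 and Psmb9 80.5 and 1.41, and Psmb7 and Psmb10 93.0 and 9.63. Psmb8 and Psmb9 are neighbors on chromosome 17 (34197721 to 34201425 and 34181988 to 34187764, GRCm38) beside the peptide transporter gene Tap1. Psmb10 lies on chromosome 8 (105935728 to 105938392). The paired activator genes Psme1 and Psme2 lie close together on chromosome 14 (55578123 to 55581529 and 55587441 to 55591113).

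Constitutive subunits varied little among mice of a group. The within-group SD of log2 CPM had a median of 0.07 over the 31 subunits against 0.15 over all genes tested, and ranged from 0.06 for Psmd2 to 0.13 for Psmb5. It was 0.18 for Psmb8, 0.21 for Psmb10, 0.32 for Psmb9 and 0.64 for Psma8, and of these Psma8, Psmb9 and Psmb8 had the fewest counts of the 47 members tested. Over the 35 libraries, after group means were taken out, pairs of constitutive subunits had a median Pearson's r of 0.38 (465 pairs, from -0.61 to 0.80). The corresponding r was 0.38 for Psmb8 with Psmb9, 0.13 for Psmb8 with Psmb10, 0.28 for Psme1 with Psme2 and 0.05 for Psmb10 with Psme1. These are descriptions, since the values share libraries, scaling and depth.

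To ask what the loss of Hdac2 in MSNs did to these genes on a normal huntingtin background, Htt+/+ Hdac2 KO was compared with Htt+/+ Hdac2 WT. Psmb10 and Psme1 rose, by 0.45 ± 0.08 and 0.39 ± 0.07 on the log2 scale (± SE), which are 1.37-fold and 1.31-fold. The cap ATPases Psmc1 and Psmc5 and the cap scaffold Psmd2 fell by 0.11, 0.10 and 0.09. These were 5 of 47 members at an adjusted p under 0.05 by edgeR's quasi-likelihood test with surrogate variables and Benjamini-Hochberg adjustment over 17126 genes, of which 17.8% were called. Both directions were represented, 2 members rising and 3 falling, against 9.06% and 8.79% of all genes.

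Psmb10 replaces the trypsin-like subunit Psmb7 in the immunoproteasome. In Htt+/+ Hdac2 WT libraries it had 6.34 CPM at the lowest, 7.73 at the median and 9.22 at the highest. In Htt+/+ Hdac2 KO libraries these values were 9.28, 10.9 and 11.5 CPM. Every Hdac2 KO library lay above every Hdac2 WT library, by a narrow margin at the edges. The adjusted p was 0.000245 by edgeR's quasi-likelihood test, and the 95% interval of the log2 fold change was 0.27 to 0.62.

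Psme1 encodes the alpha subunit of the PA28 activator, which opens the core independently of ubiquitin and ATP. It had 15.9, 17.7 and 19.5 CPM at the lowest, median and highest of the Htt+/+ Hdac2 WT libraries. The Htt+/+ Hdac2 KO libraries had 21.4, 23.5 and 26.1 CPM. The groups did not overlap, and the adjusted p was 0.000209 by edgeR's quasi-likelihood test (95% interval 0.24 to 0.54, log2). Psmb10 and Psme1 were the 2 members whose ranges did not overlap, against 4.7% of the 17126 genes.

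The other immunoproteasome subunits did not pass the test. Psmb8, which replaces the chymotrypsin-like subunit Psmb5, had 2.39, 3.03 and 3.19 CPM in Htt+/+ Hdac2 WT libraries and 2.90, 3.43 and 4.13 CPM in Htt+/+ Hdac2 KO libraries. The ranges overlapped, and the log2 difference of 0.19 had a 95% interval from -0.06 to 0.44. Psmb9, which replaces the caspase-like subunit Psmb6, had 0.871, 1.23 and 1.62 CPM in Htt+/+ Hdac2 WT libraries and 1.17, 1.56 and 2.36 CPM in Htt+/+ Hdac2 KO libraries. Its log2 difference of 0.17 had an interval from -0.23 to 0.58. The interval of Psmb9 includes the value of Psmb10, and that of Psmb8 ends just below it. Over 12 alternatives Psmb8 was called in 5, at 0.11 to 0.35, and Psmb9 in 0, at 0.17 to 0.52.

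**Figure D2:**
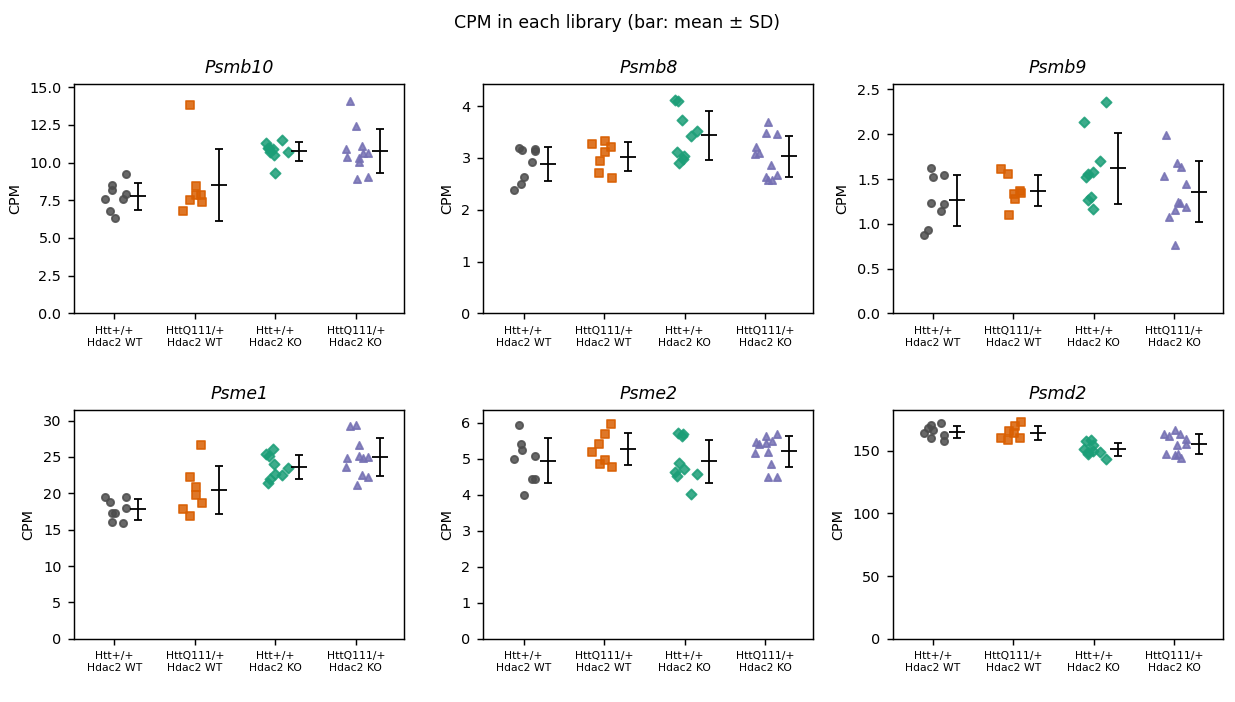
CPM of 6 members in each library by genotype group, with bars for mean ± SD. Psmb10 and Psme1 are higher in Hdac2 KO than in Hdac2 WT libraries of Htt+/+ mice without overlap, 1 HttQ111/+ Hdac2 WT library has 13.8 CPM of Psmb10, and Psmb8, Psmb9 and Psme2 overlap in all groups.

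Among the members that fell, Psmd2, a scaffold of the cap base, had 158, 165 and 172 CPM in Htt+/+ Hdac2 WT and 143, 150 and 159 CPM in Htt+/+ Hdac2 KO libraries. The ranges touched only at their ends. Its log2 fold change was -0.09 ± 0.03 (SE), with an adjusted p of 0.0483 by edgeR's quasi-likelihood test, and the call was lost in 14 of 17 fits that each left out 1 library, where it was -0.11 to -0.08.

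Psmc1 had 105, 114 and 128 CPM in Htt+/+ Hdac2 WT and 103, 109 and 115 CPM in Htt+/+ Hdac2 KO libraries. Psmc5 had 129, 139 and 157 CPM in the former and 126, 139 and 148 CPM in the latter. Both ATPases overlapped broadly between the groups, and their adjusted p of 0.0169 and 0.0117 by edgeR's quasi-likelihood test came from the fit with surrogate variables. In the fit with no covariates neither was called.

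The catalytic core subunits stayed close to equal. Psmb5 had 29.9, 35.5 and 38.5 CPM in Htt+/+ Hdac2 WT and 29.4, 35.0 and 38.3 CPM in Htt+/+ Hdac2 KO libraries, with a 95% interval of the log2 difference from -0.17 to 0.16. Psmb6 had 76.8, 80.8 and 85.7 CPM against 75.9, 80.3 and 83.1 CPM, with an interval from -0.05 to 0.09. Psmb7 had 86.2, 89.8 and 92.3 CPM against 88.7, 91.8 and 98.7 CPM, with an interval from 0.01 to 0.13 and an adjusted p of 0.122 by edgeR's quasi-likelihood test. In the fit with surrogate variables, 30 of the 31 constitutive subunits differed by less than 0.1 in log2, which is 96.8% against 51.9% of all genes tested. The median of their absolute log2 differences was 0.03, against 0.10 over all genes tested. These comparisons with all genes were not matched for level. In that fit 13 of the 31 lay above 0 and 18 below. Mean CPM, which takes no covariate into account, showed larger falls for some subunits. Psmc6 had 79.3 CPM in Htt+/+ Hdac2 WT and 71.7 CPM in Htt+/+ Hdac2 KO libraries, Psmd14 80.3 and 72.9, and Psmc2 101 and 93.2. The sum over all 31 had means of 2462 and 2385 CPM.

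The other activators gave no call. Psme2, the partner of Psme1 in PA28, had 3.99 to 5.95 CPM in Htt+/+ Hdac2 WT and 4.04 to 5.72 CPM in Htt+/+ Hdac2 KO libraries, with a log2 difference of 0.07 and a 95% interval from -0.13 to 0.28. A retrocopy annotated as Psme2b had 685 to 1307 counts in a library, so that reads of Psme2 may be split with it. Psme3, the nuclear PA28 subunit, and Psme4, the PA200 activator, had log2 differences of -0.07 (-0.15 to 0.01) and -0.06 (-0.14 to 0.02). The 20S assembly chaperones Psmg2 and Psmg3 had log2 differences of 0.16 and 0.18 with adjusted p of 0.0745 and 0.103 by edgeR's quasi-likelihood test. Psmg3 shares 2816 bases with a gene of the same strand, Gm26938 (69 to 165 counts).

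Overlapping genes on the same strand could share reads with members. Those with the most counts were Gm15542 (2221 to 4656 counts) and Gm21972 (789 to 1188 counts). Gm15542 shares 1194 bases with Psmd13, and Gm21972 shares 5515 bases with Psmd1. A gene on the other strand spans all of Psmb10. It was listed at 0 to 7 counts where Psmb10 had 340 to 833, so that reads of Psmb10 were not counted for it. Psme1 shares 14 bases with Emc9 on the other strand, and Psmb9 shares 212 bases with Tap1 on the other strand.

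The same question was asked on the disease background, with HttQ111/+ Hdac2 KO against HttQ111/+ Hdac2 WT. Psmb10 rose by 0.43 ± 0.07 (1.34-fold) and Psme1 by 0.23 ± 0.06 (1.17-fold, log2 ± SE). They were the 2 members of 47 that passed edgeR's quasi-likelihood test, with adjusted p of 0.000116 and 0.0113, against 16.5% of 17169 genes, with 7.68% rising and 8.86% falling. No constitutive subunit was called, and all 31 differed by less than 0.1 in log2, against 57.1% of all genes tested.

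Psmb10 had 6.76, 7.86 and 13.8 CPM at the lowest, median and highest of the HttQ111/+ Hdac2 WT libraries and 8.92, 10.6 and 14.1 CPM in HttQ111/+ Hdac2 KO libraries. The 13.8 CPM came from 1 Hdac2 WT library, replicate 7, whose 6 companions had 6.76 to 8.46 CPM, below every Hdac2 KO library. Without that library the log2 fold change was 0.44. Psme1 had 16.8, 19.8 and 26.7 CPM in HttQ111/+ Hdac2 WT and 21.2, 24.9 and 29.3 CPM in HttQ111/+ Hdac2 KO libraries. The Hdac2 WT range reached well into the Hdac2 KO range, through replicates 3 and 5 at 26.7 and 22.3 CPM. The call for Psme1 was lost without replicate 1 or replicate 6 of HttQ111/+ Hdac2 WT (0.19 in both, adjusted p of 0.0893 and 0.0702 by edgeR's quasi-likelihood test). No member had ranges without overlap here, against 1.43% of all genes.

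For Psmb8 the lowest, median and highest values were 2.61, 3.11 and 3.32 CPM in HttQ111/+ Hdac2 WT and 2.57, 3.08 and 3.70 CPM in HttQ111/+ Hdac2 KO libraries. The 95% interval of its log2 difference ran from -0.22 to 0.22, below the value of Psmb10. Psmb9 had 1.10, 1.34 and 1.61 CPM in the former and 0.769, 1.25 and 1.99 CPM in the latter, and its interval ran from -0.27 to 0.43. The cap scaffold Psmd2 and the chaperone Psmg3 had log2 differences of -0.08 and 0.18, with adjusted p of 0.0605 and 0.0595 by edgeR's quasi-likelihood test.

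**Figure D3:**
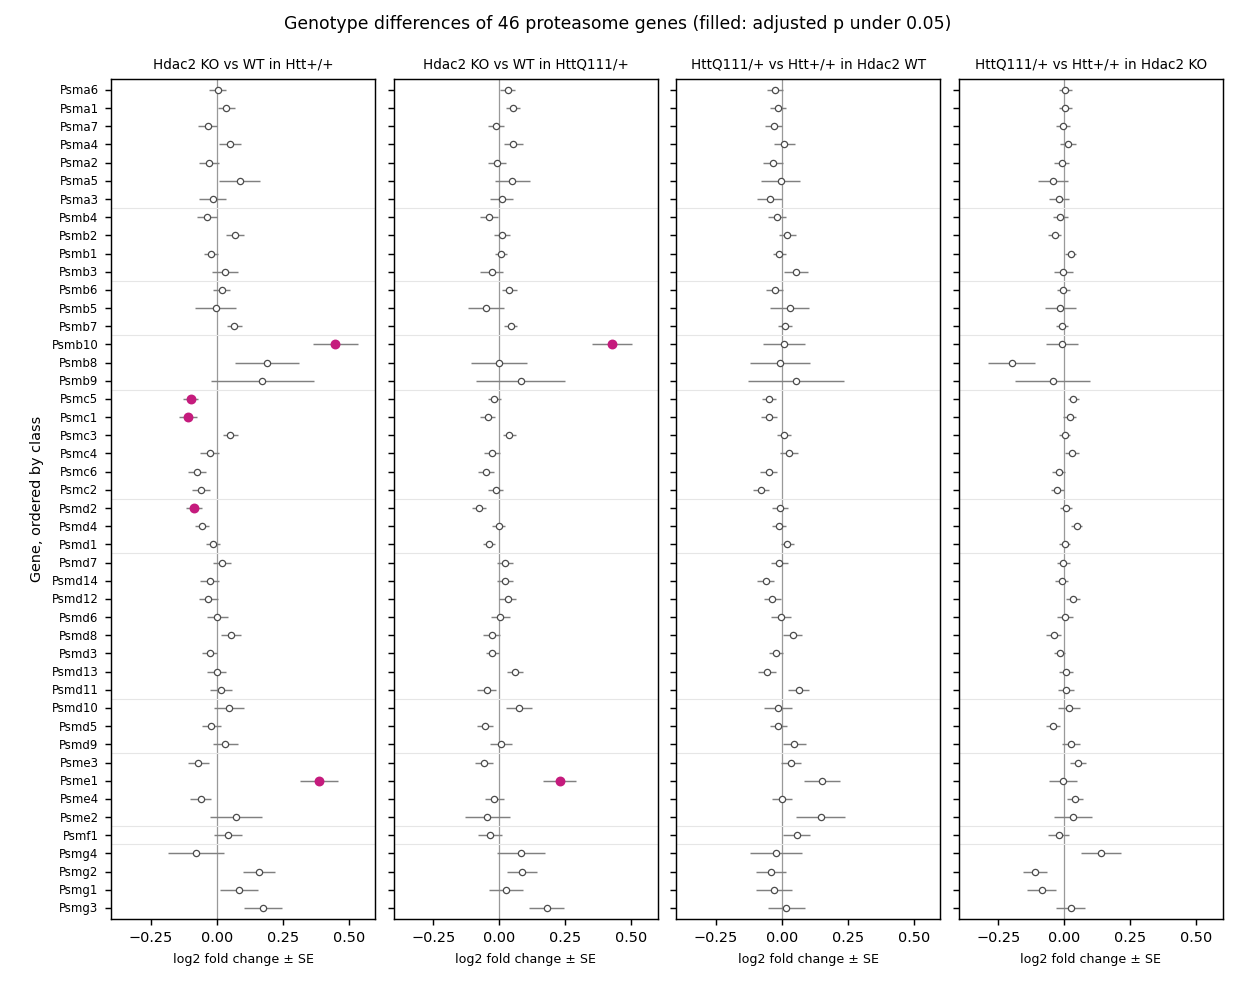
Log2 fold changes ± SE of 46 members in 4 comparisons, ordered by class, with filled points for an adjusted p under 0.05. The low gene Psma8 is left out of the plot. Psmb10 and Psme1 are filled in both comparisons of Hdac2 KO with Hdac2 WT, Psmc1, Psmc5 and Psmd2 in the first alone, and no point is filled in the comparisons of HttQ111/+ with Htt+/+.

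Whether the HttQ111 allele changed the effect of Hdac2 KO was tested as an interaction over all 35 libraries. No member passed edgeR's quasi-likelihood test, against 0.00577% of 17346 genes, and none was called by DESeq2. Only Psmc5 had an unadjusted p under 0.05, as did 5.63% of all genes, with a log2 interaction of 0.08 and an adjusted p of 0.866. The interaction was -0.02 for Psmb10 (95% interval -0.22 to 0.19) and -0.16 for Psme1 (-0.33 to 0.02).

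Averaged over both huntingtin genotypes, 8 of 47 members were called between Hdac2 KO and Hdac2 WT, against 25.0% of 17346 genes. Of these members 5 rose and 3 fell, against 12.9% and 12.1% of all genes. Psmb10 (0.44 ± 0.06), Psme1 (0.31 ± 0.05), the core chaperones Psmg3 (0.18 ± 0.05) and Psmg2 (0.13 ± 0.05) and the catalytic subunit Psmb7 (0.06 ± 0.02) rose. Psmd2, Psmc1 and Psmc5 fell by 0.08, 0.07 and 0.06. Of 11 alternatives the call was made in 2 for Psmb7, in 3 for Psmg2 and Psmc5 and in 6 for Psmc1, and for none of these 4 genes in the fit with no covariates. With the extraction day as covariate none of the 8 was called, Psmb10 and Psme1 included, against 4.62% of all genes. With surrogate variables all 31 constitutive subunits again differed by less than 0.1 in log2, against 57.1% of all genes tested.

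To ask what the HttQ111 allele did, HttQ111/+ was compared with Htt+/+ mice in each Hdac2 background. No member passed edgeR's quasi-likelihood test in Hdac2 WT mice, against 0.403% of 17133 genes, and none in Hdac2 KO mice, against 0.00584% of 17110 genes. DESeq2 also called none in either. At an unadjusted p under 0.05 there were 2 members in Hdac2 WT mice (Psmc2 and Psme1) and 3 in Hdac2 KO mice (Psmb8, Psmd4 and Psmg2), named here after their values were seen, against 10.9% and 7.52% of all genes. All 31 constitutive subunits differed by less than 0.1 in log2 in both backgrounds, against 69.4% of all genes tested in Hdac2 WT and 78.3% in Hdac2 KO mice.

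The intervals bound what could be missed. For Psmb10 the 95% interval of the log2 difference ran from -0.16 to 0.17 in Hdac2 WT and from -0.14 to 0.12 in Hdac2 KO mice. Psme1 had 0.15 (0.01 to 0.29, adjusted p of 0.403 by edgeR's quasi-likelihood test) in Hdac2 WT and -0.01 (-0.12 to 0.10) in Hdac2 KO mice. Without the mice whose ID in the labels begins with A (ID series A) its difference in Hdac2 WT mice was 0.25, with an adjusted p of 0.0329 by the same test. In HttQ111/+ Hdac2 WT mice the repeat was 131 to 140 units long in series V and 110 to 113 in A and Z. Mean Psme1 was 23.3 CPM in V, 18.8 in A and 17.8 in Z there, and 26.4, 22.0 and 25.5 CPM in HttQ111/+ Hdac2 KO mice. Among HttQ111/+ mice repeat length followed ID series, so that they cannot be told apart in these mice alone. In Htt+/+ mice, which lack the expanded repeat, mean Psme1 was 17.91 CPM in V, 18.37 in A and 16.03 in Z with Hdac2 WT. With Hdac2 KO it was 24.30, 24.10 and 23.16 CPM in the same order. The Z value with Hdac2 WT and the A value with Hdac2 KO came from 1 library each. The part of repeat length or ID series in the Psme1 level was not tested. The log2 difference of Psmb8 was -0.01 (-0.24 to 0.23) in Hdac2 WT and -0.20 (-0.39 to -0.01) in Hdac2 KO mice. For Psmb9 it was 0.05 (-0.32 to 0.43) and -0.04 (-0.34 to 0.25). Averaged over both Hdac2 genotypes no member was called, against 1.27% of 17346 genes, none was called by DESeq2, and the 1 member at an unadjusted p under 0.05, against 12.3% of all genes, was Psmc2 (log2 -0.05).

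Mice with both changes were also set against mice with neither. Of 47 members 7 were called in HttQ111/+ Hdac2 KO against Htt+/+ Hdac2 WT, against 21.2% of 17088 genes. Psmb10 (0.44), Psme1 (0.38) and Psmg3 (0.20) rose, and Psmc6, Psmc1, Psmc2 and Psmd2 fell by 0.10, 0.09, 0.09 and 0.08. Of 12 alternatives the call was made in 5 for Psmc6 and Psmc1, in 4 for Psmc2 and in 7 for Psmd2, and in the fit with no covariates for Psmd2 alone among these 4. This comparison shares its control libraries with that of Hdac2 KO in Htt+/+ mice.

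The ratio of an immunoproteasome subunit to the subunit it replaces does not depend on scaling between libraries. For Psmb10 to Psmb7 the log2 ratio of CPM was -3.54 ± 0.19 in Htt+/+ Hdac2 WT and -3.10 ± 0.09 in Htt+/+ Hdac2 KO libraries (mean ± SD). The difference of 0.44 ± 0.08 (SE) had a p of 0.000165 in an exact two-sided permutation test and 0.00197 after Benjamini-Hochberg adjustment over the 12 tests of this family. In HttQ111/+ mice the ratios were -3.48 ± 0.33 and -3.16 ± 0.12, and the difference of 0.32 ± 0.13 had an exact permutation p of 0.0109 and an adjusted p of 0.0656. The permutations took no account of the extraction day, which nearly followed the Hdac2 genotype.

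Neither other ratio passed the adjustment. Psmb8 to Psmb5 differed by 0.22 ± 0.13 in Htt+/+ mice and 0.02 ± 0.09 in HttQ111/+ mice, with adjusted exact permutation p of 0.215 and 0.912. Psmb9 to Psmb6 differed by 0.37 ± 0.17 and -0.10 ± 0.14, with adjusted exact permutation p of 0.179 and 0.757. The 6 differences between HttQ111/+ and Htt+/+ mice lay between -0.30 and 0.18, with adjusted exact permutation p of 0.179 or more.

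**Figure D4:**
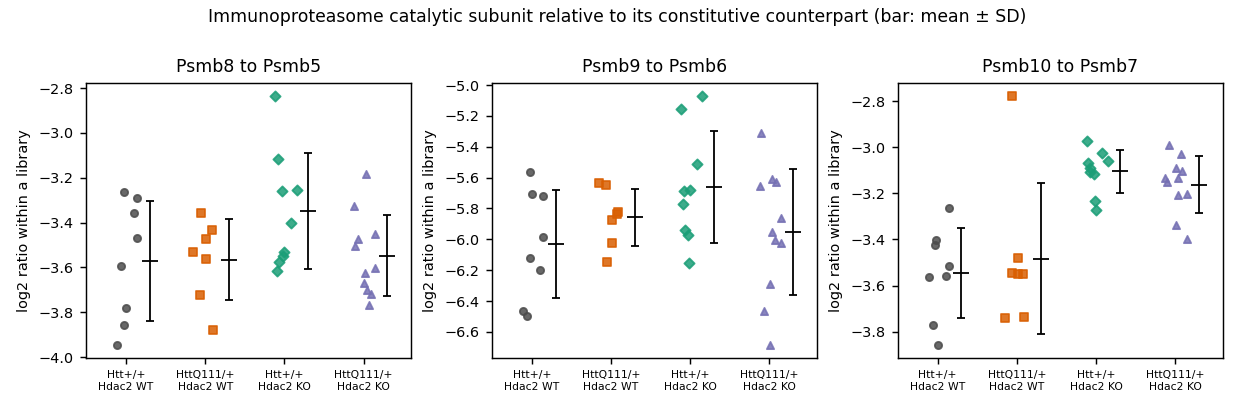
Log2 ratio of CPM within each library for the 3 pairs of immunoproteasome and constitutive catalytic subunits, by genotype group, with bars for mean ± SD. Psmb10 to Psmb7 is higher in Hdac2 KO than in Hdac2 WT mice (-3.10 against -3.54 in Htt+/+), 1 HttQ111/+ Hdac2 WT library lies above all Hdac2 KO libraries, and the other ratios overlap in all groups.

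The extraction day moved with the Hdac2 genotype, and values within days are given for that reason. On 27 May the 3 Htt+/+ Hdac2 WT libraries had 7.56 to 9.22 CPM of Psmb10 and 17.2 to 19.5 CPM of Psme1, and the 1 Htt+/+ Hdac2 KO library had 10.7 and 23.5 CPM. On 25 May the 2 HttQ111/+ Hdac2 WT libraries had 7.86 and 13.8 CPM of Psmb10 and 20.8 and 16.8 CPM of Psme1, and the 1 HttQ111/+ Hdac2 KO library had 9.07 and 22.2 CPM. The Hdac2 KO library was thus above the Hdac2 WT libraries of its day and huntingtin genotype for Psme1 on both days and for Psmb10 on 27 May. It came from another ID series than those libraries on both days. Of the other huntingtin genotype, 2 Hdac2 WT libraries of 27 May had 22.3 and 26.7 CPM of Psme1 and 7.86 CPM or less of Psmb10. The 3 of 25 May had 15.9 to 18.8 CPM of Psme1 and 6.77 to 8.53 CPM of Psmb10. The single Hdac2 KO libraries were not tested within a day.

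With the extraction day as covariate in place of the surrogate variables, no member was called in either comparison of Hdac2 KO with Hdac2 WT, against 4.80% and 1.93% of all genes. Psmb10 then had log2 fold changes of 0.30 in Htt+/+ and 0.11 in HttQ111/+ mice, with adjusted p of 0.324 and 0.826 by edgeR's quasi-likelihood test. Psme1 had 0.29 and 0.18, with adjusted p of 0.139 and 0.493 by the same test.

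**Figure D5:**
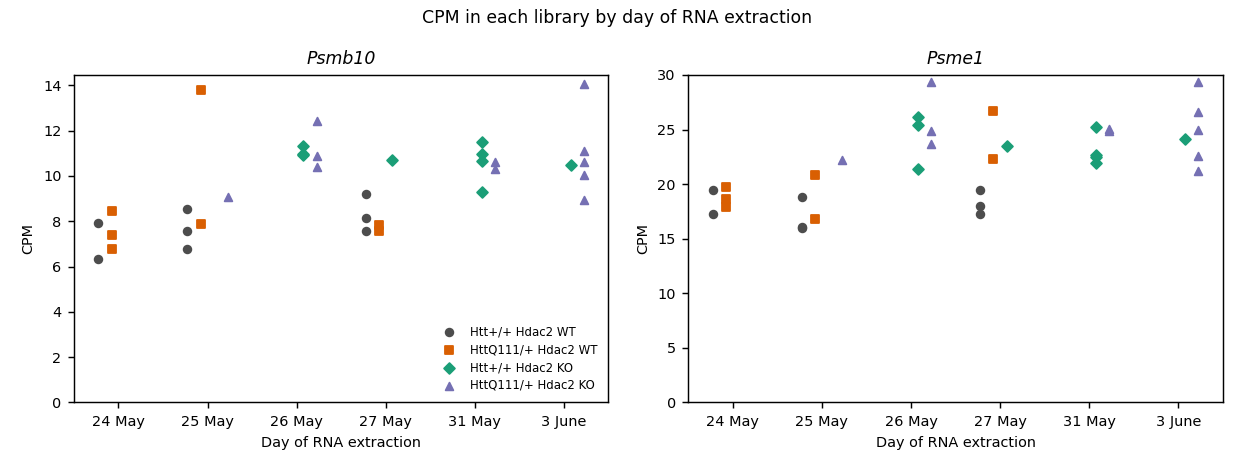
CPM of Psmb10 and Psme1 in each library by the day of RNA extraction, with 1 symbol for each genotype group. Hdac2 WT and Hdac2 KO libraries share 25 May and 27 May alone, and on those days the Hdac2 KO libraries have 9.07 and 10.7 CPM of Psmb10 and 22.2 and 23.5 CPM of Psme1.

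Genes that act beside the proteasome were read from lists. Of 20 partners outside the symbol rule, 4 fell and none rose in Htt+/+ Hdac2 KO mice, a share near the 17.8% of all genes called there, among them Nfe2l1 (-0.16 ± 0.03), a transcription factor that drives proteasome subunit genes, and the ubiquitin shuttles Ubqln2 (-0.14 ± 0.03) and Ubqln4 (-0.18 ± 0.03). The fourth was AI314180 (-0.19 ± 0.03), the mouse Ecm29 gene, whose product binds the proteasome. All 4 fell in HttQ111/+ Hdac2 KO mice too, by 0.11, 0.15, 0.11 and 0.15 in the same order, where the deubiquitinase Usp14 also fell (by 0.10) and the core assembly factor Pomp (0.11) and the regulator Akirin2 (0.11) rose. These were 7 of 20 called in HttQ111/+ mice, against 16.5% of all genes. None of 6 ubiquitin and E1 genes was called in either comparison by edgeR's quasi-likelihood test, and 0 and 1 had an unadjusted p under 0.05, against 29.0% and 28.1% of all genes.

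In a list of 19 antigen processing and interferon genes, 3 rose in Htt+/+ and 2 in HttQ111/+ Hdac2 KO mice, against 9.06% and 7.68% of all genes. Those that rose included the class I genes B2m (0.36 ± 0.06) and H2-D1 (0.37 ± 0.08) in Htt+/+ Hdac2 KO mice, and B2m (0.33 ± 0.06) and H2-D1 (0.23 ± 0.07) rose in HttQ111/+ Hdac2 KO mice. No gene of the list fell in either. Their median log2 difference was 0.19 in Htt+/+ and -0.0048 in HttQ111/+ mice, against -0.00135 and -0.00437 over all genes tested. In HttQ111/+ mice 11 of the 19 lay below 0, down to -0.36.

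Markers of other cell types are given beside the Psmb10 and Psme1 values. None of 10 microglial markers was called in either comparison of Hdac2 KO with Hdac2 WT by edgeR's quasi-likelihood test, and none had an unadjusted p under 0.05, against 29.0% and 28.1% of all genes. Their summed level ran from 573 to 718 CPM in Htt+/+ Hdac2 WT and from 674 to 797 CPM in Htt+/+ Hdac2 KO libraries, and from 583 to 689 and 595 to 764 CPM in the HttQ111/+ groups. As mean ± SD it was 651 ± 48 and 718 ± 39 CPM in the Htt+/+ and 626 ± 39 and 671 ± 49 CPM in the HttQ111/+ groups. The sums were thus higher on average with Hdac2 KO. They take no covariate into account, while the test used surrogate variables. Endothelial markers summed to 165 to 221 CPM and 171 to 248 CPM in the Htt+/+ groups (180 ± 18 and 202 ± 30 CPM as mean ± SD). None of 6 was called in either comparison by the same test, and 1 in Htt+/+ and 0 in HttQ111/+ mice had an unadjusted p under 0.05. None of 6 oligodendrocyte markers was called or had an unadjusted p under 0.05 in either comparison.

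Other marker lists held calls, where 17.8% of all genes were called in Htt+/+ and 16.5% in HttQ111/+ mice. The astrocyte glutamate transporter Slc1a2 fell in both comparisons (by 0.19 and 0.18), as 1 of 6 astrocyte markers. At an unadjusted p under 0.05, 3 of the 6 fell in Htt+/+ and 1 in HttQ111/+ mice, against 29.0% and 28.1% of all genes. Of 9 MSN markers 4 were called in Htt+/+ mice, where 2 rose and 2 fell, and 2 were called in HttQ111/+ mice. Ppp1r1b (0.24 and 0.31) and the neuropeptide gene Tac1 (0.27 and 0.29) rose in both, and those that fell in Htt+/+ mice included Drd2 (by 0.16). The D9-Cre transgene of the Hdac2 KO mice holds some exons and introns of Ppp1r1b, so that its reads may count as Ppp1r1b. The cortical marker Cux2 rose in Htt+/+ mice (0.44), as 1 of 6 entries, and none was called in HttQ111/+ mice, where 1 had an unadjusted p under 0.05. The choroid plexus marker Clic6 rose in both (0.39 and 0.37), and Ttr fell by 3.12 in Htt+/+ mice. These were 2 of 4 choroid plexus markers tested in Htt+/+ and 1 of 5 in HttQ111/+ mice. Choroid plexus markers summed to 17.5 to 212 CPM in Htt+/+ Hdac2 WT and 22.6 to 45.4 CPM in Htt+/+ Hdac2 KO libraries, with medians of 41.2 and 32.5 CPM. The part of any of these cells in the rise of Psmb10 and Psme1 was not tested.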

How the data were processed

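Striatal RNA from 35 mice was sequenced as stranded, poly(A)-selected paired-end libraries. The authors aligned the reads to GRCm38 (Ensembl annotation) with GSNAP and deposited raw counts of unique alignments over whole gene intervals from bedtools. A further Htt+/+ Hdac2 WT library that the authors set aside for signs of DNA contamination was not analysed here. The use of strand in counting is not given in the sources used here. Reads of Psmb10 were not counted for the gene on the other strand that spans it. Of 39109 entries, 92 were spike-ins, 6152 were short (up to 250 nt) and 2 were mitochondrial rRNAs, and 32863 genes remained without them. A gene was tested where every library of at least 1 compared group held 6 counts or more.

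Counts were scaled by TMM and tested in R 4.3.3 with edgeR 4.0.16 (quasi-likelihood F test, Benjamini-Hochberg over all genes tested, threshold 0.05), with 9 surrogate variables from sva 3.50.0 estimated on all 35 libraries. Confidence intervals used the t quantile on 22 residual degrees of freedom. DESeq2 1.42.0 was an alternative. CPM values are TMM-scaled, and exon lengths and strands came from GENCODE vM21 (GRCm38), matched by Ensembl ID for all 48 members. Promoters came from the RefSeq table (GRCm38.p6). Ratios were compared by exact permutation tests in SciPy 1.17.1. The fit was tested on simulated counts. Between 50339179 and 76939791 counts fell on genes in a library.

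Groups came from the genotype labels. Genes named in the text were the catalytic subunits and activators, every called member of the comparisons of Hdac2 KO with Hdac2 WT (at most 6 in each direction), and members called for the HttQ111 allele. The members and lists were chosen with earlier results of these data known. The results of 2 genes of the lists are not reported here. The replicate numbers in the titles were checked for pairing as described with the alternatives.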

Additional observations from a re-analysis of the deposited data

Results flagged for a closer look

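Dixon's test was applied to 17 members in the groups of 7 to 9 libraries, which gave 51 sets, and 7 sets held a library far from the others. Chance flags about 1 in 20 sets. Psmb10 was 13.8 CPM in the highest HttQ111/+ Hdac2 WT library, where the others had 6.76 to 8.46 CPM, and 9.28 CPM in the lowest Htt+/+ Hdac2 KO library, where the others had 10.5 to 11.5 CPM. Psme3 was 53.9 CPM in the highest Htt+/+ Hdac2 WT library, where the others had 48.3 to 50.7 CPM. Psmc5 was 157 CPM in the highest Htt+/+ Hdac2 WT library, where the others had 129 to 142 CPM.

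The remaining values were of genes with few counts. Psmb11 was 0.105 CPM in the highest Htt+/+ Hdac2 WT library and 0.110 CPM in the highest Htt+/+ Hdac2 KO library, against 0.0390 and 0.0205 CPM or less in the others. Psma8 was 0.902 CPM in the highest Htt+/+ Hdac2 KO library, where the others had 0.190 to 0.498 CPM. Why these libraries stood apart was not tested.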

How the results depend on the processing

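Psmb10 and Psme1 kept the direction of their rise with Hdac2 KO in both huntingtin backgrounds under all 12 alternatives. Their calls were lost with the extraction day as covariate, apart from Psme1 in HttQ111/+ Hdac2 KO against Htt+/+ Hdac2 WT, and Psme1 in HttQ111/+ mice also in males only (0.21, adjusted p 0.128) and without ID series A (0.21, adjusted p 0.0653), by edgeR's quasi-likelihood test. The cause was not tested.

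In Htt+/+ mice the count of members called for Hdac2 KO was 5, against 17.8% of all genes. It was 11 with no covariates, with sex, with ID series and with the replicate block, against 23.4%, 23.1%, 21.8% and 25.4% of all genes. It was 12 with only the libraries compared and 0 with extraction day, against 29.7% and 4.80% of all genes. In HttQ111/+ mice it was 2, against 16.5% of all genes. It was 4 by DESeq2 and with ID series (17.8% and 16.8% of all genes), 1 in males only (9.81%) and 0 with extraction day (1.93%). For HttQ111/+ against Htt+/+ in Hdac2 WT mice it was 0 (0.403% of all genes), and 1 with ID series (4.89%) or without series A (5.24%). For HttQ111/+ Hdac2 KO against Htt+/+ Hdac2 WT it was 7, against 21.2% of all genes. It was 1 with extraction day (4.67% of all genes), 2 in males only (13.1%), 3 with no count filter (12.7%) and 4 without series A (23.7%). For the average of Hdac2 KO it was 8, against 25.0% of all genes. It was 0 with extraction day (4.62% of all genes), 5 in males only (17.7%) or with no count filter (15.7%) and 4 without series A (22.4%). For the HttQ111 allele in Hdac2 KO mice, for its average and for the interaction the count stayed at 0 under all alternatives run. There at most 0.263%, 4.72% and 0.0404% of all genes were called, in the same order.

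Directions that reversed were those of small differences. With extraction day Psmc5 became 0.00092 in Htt+/+ mice and 0.039 on average, and Psmg2 became -0.052 on average. In HttQ111/+ Hdac2 KO against WT, Psmb8 became 0.13 without series A, 0.0028 with no count filter and 0.0044 with only the libraries compared, and Psmb9 became -0.015 with no covariates, -0.024 with ID series and -0.13 in males only. For HttQ111/+ against Htt+/+ in Hdac2 WT mice, Psmb8 became 0.068 with no covariates, 0.069 with sex, 0.065 with extraction day, 0.097 with ID series and 0.093 with only the libraries compared, and Psmb10 became -0.049 in males only and -0.025 with only the libraries compared. In Hdac2 KO mice, Psmb9 became 0.032 without series A, Psmb10 became 0.0030 with no covariates, 0.010 with sex, 0.035 with ID series and 0.026 without series A, and Psme1 became 0.080 with no covariates, 0.060 with sex, 0.064 with ID series, 0.097 with extraction day, 0.0091 in males only, 0.036 without series A and 0.025 with only the libraries compared.

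Replicate numbers were not taken as pairs. The median correlation of deviations was 0.037 for 45 same-number pairs (-0.19 to 0.27) and -0.0078 for 410 other pairs (-0.32 to 0.38). It was over 0.1 in 15 of the former and 79 of the latter, and 9 of 33 libraries matched best with their own number. Whether the numbers mark a weak pairing was not tested. With the replicate number as a block, Psmb8 became 0.0070 and Psmb9 -0.15 for Hdac2 KO in HttQ111/+ mice, Psmb8 0.051 for the HttQ111 allele in Hdac2 WT mice, and Psmb10 0.0025 and Psme1 0.083 for it in Hdac2 KO mice.

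Among ratios, Psmb10 to Psmb7 in males only lost its call in Htt+/+ mice (0.37, adjusted exact permutation p 0.0952) and gained one in HttQ111/+ mice (0.43, 0.0485). It became -0.045 and 0.0077 in males only for the HttQ111 allele in Hdac2 WT and Hdac2 KO mice. Psmb8 to Psmb5 became -0.056 in males only, -0.022 without series A and -0.0054 with a pseudocount of 0.5 for the allele in Hdac2 WT mice, and Psmb9 to Psmb6 became 0.019 without series A for Hdac2 KO in HttQ111/+ mice.

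Leaving out each library in turn was added after seeing the data. In HttQ111/+ mice Psmb8 ranged from -0.058 to 0.13 and Psmb9 from -0.027 to 0.17. Psmb10 ranged from 0.42 to 0.50 and Psme1 from 0.37 to 0.47 in Htt+/+ mice, with all calls kept, and Psmb10 from 0.39 to 0.47 in HttQ111/+ mice. Psmb8 and Psmb9, at 43 to 233 counts, had wider intervals than the other subunits tested apart from Psma8.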
